A study of Mus musculus with 9 samples.

Results

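The 45 genes described here encode the machinery that copies nuclear DNA in S phase. They were chosen by gene symbol from a fixed list and are 45 of the 54532 genes counted. The list was made with earlier results of these data known. Adipose-derived stem cells (ASCs) from C57BL/6 mice were grown from subcutaneous fat (Sub-ASCs), abdominal fat (Ab-ASCs) and perivascular fat (PVASCs), and their RNA was sequenced in 3 libraries per group. No genetic change or treatment is given for any group, and all were kept in the same stem cell medium with serum, leukaemia inhibitory factor and FGF, so the depot of origin is the labelled difference. The cells were harvested at passages given only as a range, and neither the passage of each library nor the age of the mice is stated. It is also not stated whether the libraries of a group came from separate animals, so p-values measure the spread between these libraries, which may be technical. The comparisons ask how far cells of the 3 depots differed in the transcripts of this machinery.

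Replication proceeds in an ordered series of steps. In G1, the origin recognition complex with CDC6 and CDT1 loads the ring-shaped MCM2-7 helicase onto origins, which is called licensing. In S phase, the kinase CDC7 with its activator DBF4 and several loading factors convert MCM2-7 into the active helicase by adding CDC45 and the GINS complex. Primase and DNA polymerases alpha, epsilon and delta then synthesise the new strands, with PCNA as the sliding clamp, the RFC complex as its loader and RPA on the exposed single strands. Many of these genes are known targets of E2F transcription factors and are transcribed mainly in late G1 and S phase, so their mRNA is widely used as a sign of cycling cells.

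Promoters of 4 members are shown because they span the range of change described below. Mcm5 and Mcm6 encode helicase subunits, Rrm2 rose most of all members, and Rfc1 is the member that did not rise in any comparison with Sub-ASCs. Each window is from RefSeq on GRCm38.p6, runs from 250 bases before to 50 bases after the gene's start in RefSeq, and is written 5′ to 3′ on the gene's strand. This start can differ from the one listed with the counts, which for Mcm5 is 75109569, past the end of its window. Capitals mark matches to the E2F words TTTCCCGC, TTTCGCGC, TTTGCCGC and TTTGGCGC or their reverse complements, and neighbouring matches can overlap. The windows are chr8:75109259-75109558 (plus strand) for Mcm5, chr1:128359656-128359955 (minus strand) for Mcm6, chr12:24708004-24708303 (plus strand) for Rrm2 and chr5:65335590-65335889 (minus strand) for Rfc1.
Mcm5: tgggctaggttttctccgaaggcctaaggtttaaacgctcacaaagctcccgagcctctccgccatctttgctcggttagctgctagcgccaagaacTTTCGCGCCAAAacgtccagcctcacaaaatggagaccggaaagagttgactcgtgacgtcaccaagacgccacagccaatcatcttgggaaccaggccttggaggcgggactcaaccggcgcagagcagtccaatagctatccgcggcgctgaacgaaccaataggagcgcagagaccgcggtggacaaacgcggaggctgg
Mcm6: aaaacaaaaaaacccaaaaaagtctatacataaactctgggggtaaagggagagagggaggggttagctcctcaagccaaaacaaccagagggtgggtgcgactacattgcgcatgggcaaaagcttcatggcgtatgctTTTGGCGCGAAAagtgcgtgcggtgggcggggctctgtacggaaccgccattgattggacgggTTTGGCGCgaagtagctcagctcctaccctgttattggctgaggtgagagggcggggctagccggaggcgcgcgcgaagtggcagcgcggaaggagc
Rrm2: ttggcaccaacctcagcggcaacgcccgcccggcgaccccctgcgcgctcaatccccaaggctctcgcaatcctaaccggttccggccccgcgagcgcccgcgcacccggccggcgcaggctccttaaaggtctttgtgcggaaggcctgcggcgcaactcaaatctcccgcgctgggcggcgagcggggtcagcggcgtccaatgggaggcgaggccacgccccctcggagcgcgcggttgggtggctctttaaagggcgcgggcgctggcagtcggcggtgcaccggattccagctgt
Rfc1: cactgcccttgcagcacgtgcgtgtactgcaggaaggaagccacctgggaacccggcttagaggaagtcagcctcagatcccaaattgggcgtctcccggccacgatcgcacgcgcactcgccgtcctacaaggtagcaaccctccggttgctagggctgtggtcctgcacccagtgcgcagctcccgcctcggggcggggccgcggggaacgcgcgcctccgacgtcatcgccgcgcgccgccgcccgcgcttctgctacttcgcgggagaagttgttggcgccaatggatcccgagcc
In the Mcm5 window there were 2 overlapping matches, whose first bases lie 153 and 149 bases before the start. The Mcm6 window held 3 matches, which begin 110, 106 and 47 bases before the start. The Rrm2 and Rfc1 windows held none, which says only that these letters are not there. Windows were found for 37 members by symbol, and 14 of them held an E2F word (37.8%), against 4.43% of the 11429 tested genes with a window and 2.61% of all 27025 genes with a window. The shorter word CCAAT, searched on both strands and not overlapping the E2F words, was found in 23 of the 37 (62.2%) and in 42.2% of the tested genes. Among the 20 members at or above the median change of all members in PVASCs against Sub-ASCs, 7 held an E2F word, and among the 17 below it also 7 did. Matches are given as a description. Gmnn, Mcm4, Gins1, Gins2, Gins4, Prim2, Pole and Rfc2 had no entry.

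Reads counted per library ranged from 20524173 to 29881036. All 45 members passed the filter on low counts. The coefficient of biological variation was 12.5% among Ab-ASC libraries, 5.69% among Sub-ASC libraries and 3.85% among PVASC libraries. Ab-ASC replicate 1 lay apart from the others for several members, and values without it are given where they matter. The labelled cell type was checked against marker genes. The 6 ASC surface markers had reads in every library and summed to 5509 to 5568 CPM in Sub-ASCs, 2113 to 2209 CPM in PVASCs and 1358 to 1424 CPM in Ab-ASCs. They did not move together: against Sub-ASCs, 3 were higher (Thy1, Eng and Cd44) and 3 lower (Ly6a, Cd34 and Pdgfra) in PVASCs, and 2 were higher (Eng and Cd44) and 4 lower in Ab-ASCs. Ly6a, which encodes the stem cell antigen Sca1, had 48821 to 54807 reads in Sub-ASC libraries, 3425 to 3511 in PVASC libraries and 443 to 479 in Ab-ASC libraries. The summed level of 4 endothelial markers was 467 to 474 CPM in PVASCs, 43.4 to 44.9 CPM in Ab-ASCs and 111 to 119.7 CPM in Sub-ASCs. For 5 smooth muscle and pericyte markers it was 2708 to 2859 CPM in PVASCs, 4316 to 5386 CPM in Ab-ASCs and 65.3 to 70.4 CPM in Sub-ASCs. Most of this sum in PVASCs and Ab-ASCs was Acta2 (smooth muscle actin), at 4014 to 5037 CPM in Ab-ASCs, while the pericyte marker Rgs5 was at 5.92 to 6.71 CPM in Sub-ASCs, 0.429 to 0.980 CPM in Ab-ASCs and 21.9 to 23.5 CPM in PVASCs. For 5 mesothelial markers it was 29.9 to 30.6 CPM in PVASCs, 78.0 to 82.2 CPM in Ab-ASCs and 1.26 to 2.28 CPM in Sub-ASCs, where Lrrn4 was at 0 reads. Among them Krt19 was highest in PVASCs, at 14.4 to 15.1 CPM, and the other 4 were highest in Ab-ASCs. The 5 haematopoietic markers summed to 45.6 to 48.9 CPM in PVASCs, 64.1 to 77.3 CPM in Ab-ASCs and 75.1 to 79.8 CPM in Sub-ASCs, and against Sub-ASCs 1 of them, Csf1r, was higher and 4 were lower in both groups. The 3 adipocyte markers summed to 18.3 to 20.8 CPM in Sub-ASCs, 0.336 to 0.406 CPM in PVASCs and 0.0446 to 0.178 CPM in Ab-ASCs, and Lep had no read in any library. The part of other cell types in the results below was not tested.

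Almost every replication gene was lowest in Sub-ASCs. In PVASCs, 44 of the 45 members were higher than in Sub-ASCs and none was lower, by edgeR with a quasi-likelihood fit and p-values adjusted (Benjamini-Hochberg) over all 16526 genes tested. Of all genes tested, 34.7% were higher and 35.7% lower in this comparison. In Ab-ASCs, 41 members were higher and 1 was lower than in Sub-ASCs, against 37% and 38.3% of all genes. The same 41 members were higher in both. The median log2 fold change of the members was 1.49 for PVASCs and 1.76 for Ab-ASCs, beside -0.011 and -0.026 for all genes tested. These 2 comparisons share the Sub-ASC libraries. With at least a 2-fold difference also required, 32 members were higher in PVASCs and 37 in Ab-ASCs, and none was lower. Of all genes, 15.7% were then higher and 16.6% lower in PVASCs, and 16.4% were higher and 21.3% lower in Ab-ASCs. The difference was at least 4-fold for 13 members in PVASCs and 17 in Ab-ASCs.

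The summed level of the 45 genes was 651, 660.4 and 650.2 CPM (reads relative to the library size scaled by the TMM method) in the 3 Sub-ASC libraries. It was 2587, 2348 and 2414 CPM in Ab-ASC libraries and 1879.96, 1913 and 1891 CPM in PVASC libraries. The groups did not overlap, and Sub-ASCs were far below the other groups. As a share of all counted reads, the members took 0.0635 to 0.0648% in Sub-ASCs, 0.224 to 0.235% in Ab-ASCs and 0.206 to 0.208% in PVASCs. In bulk libraries a smaller share of cells in S phase and less of these mRNAs per cell cannot be told apart. For 44 members every PVASC library was above every Sub-ASC library, a pattern that 38.3% of all genes tested showed. For 42 members every Ab-ASC library was above every Sub-ASC library, as for 37.4% of all genes. Rfc1 was the 1 member with the opposite order in either comparison, seen in 39% of all genes for PVASCs and 39.1% for Ab-ASCs.

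**Figure D1:**
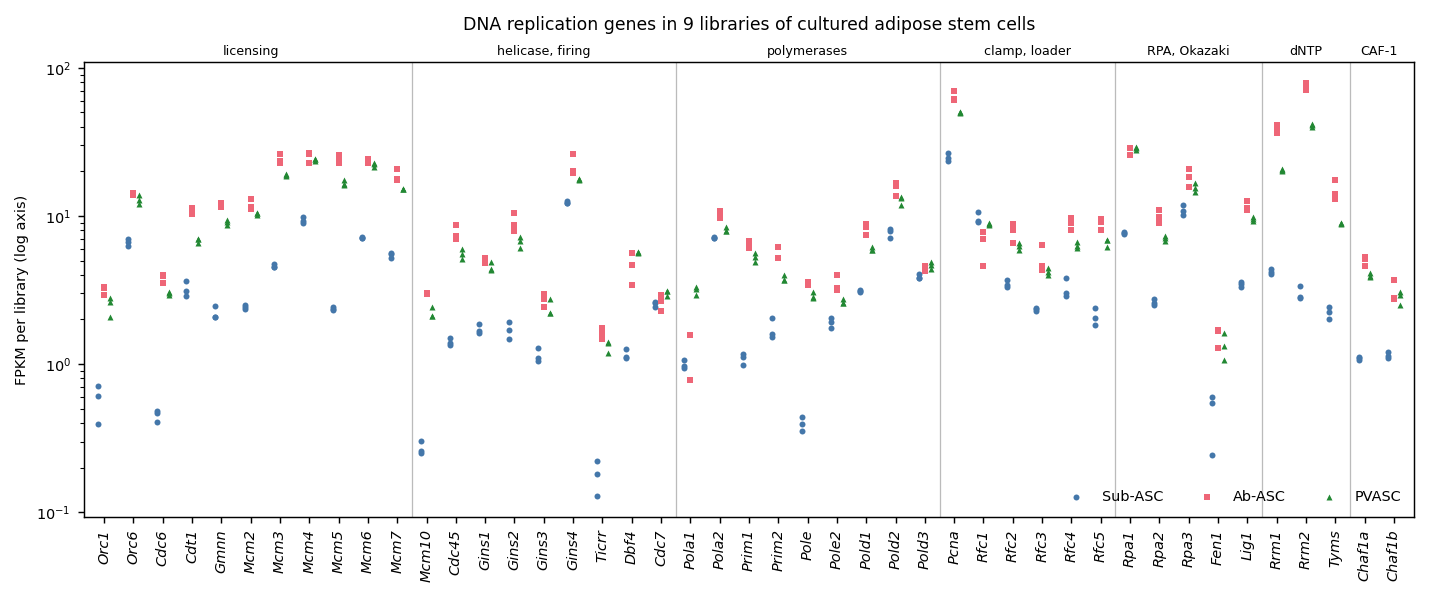
Level of each of the 45 members in each of the 9 libraries, as FPKM on a log axis (CPM per kilobase of listed gene length), ordered by role. Blue circles are Sub-ASC, red squares Ab-ASC and green triangles PVASC libraries. Sub-ASC points lie below the others for nearly all genes, and Rfc1, Cdc7 and Pola1 are the departures.

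Per unit of gene length, the members spanned a wide range of levels. In Sub-ASCs, mean FPKM ran from 0.177 for Ticrr to 24.9 for Pcna, with a median of 2.44. In Ab-ASCs it ran from 1.31 for Pola1 to 74.0 for Rrm2, with a median of 8.94. In PVASCs it ran from 1.34 for Ticrr to 50.3 for Pcna, with a median of 6.65. Pcna led in Sub-ASCs and PVASCs, and Rrm2 led in Ab-ASCs. FPKM depends on the listed length of a gene, which for Pola2 is 2872 bases although its exons in GENCODE M21 cover 8294 bases.

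Origin licensing genes rose together. All 11 were higher in PVASCs and all 11 in Ab-ASCs than in Sub-ASCs, with median log2 fold changes of 2.03 and 2.28. The shares of all genes tested to set beside this and each further role are 34.7% higher in PVASCs and 37% higher in Ab-ASCs. Mcm5, a subunit of the MCM2-7 helicase, changed most of them. It was at 9.65, 9.27 and 9.41 CPM in Sub-ASC libraries, 103, 90.9 and 95.5 CPM in Ab-ASC libraries and 64.7, 70.4 and 65.3 CPM in PVASC libraries. The groups were fully separate, in the order Sub-ASC, PVASC and Ab-ASC. The log2 fold change was 2.82 in PVASCs (standard error 0.072, adjusted p = 3.54e-12) and 3.35 in Ab-ASCs (standard error 0.073, adjusted p = 7.87e-13), both against Sub-ASCs by edgeR. Cdc6, the factor that helps load the helicase, followed with 2.73 (standard error 0.10) in PVASCs and 3.07 (standard error 0.10) in Ab-ASCs. Orc6, a subunit of the origin recognition complex, changed least. It was at 15.5, 16.4 and 17.2 CPM in Sub-ASCs, 34.2, 34.3 and 35.4 CPM in Ab-ASCs and 31.5, 29.6 and 34.5 CPM in PVASCs, a log2 fold change of 0.96 (standard error 0.074, adjusted p = 1.38e-07) in PVASCs. Orc1, the largest subunit of that complex, rose by 2.11 on the log2 scale (standard error 0.18) in PVASCs and by 2.46 (standard error 0.18) in Ab-ASCs.

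Mcm4 had the highest mean FPKM of the licensing genes in PVASCs. It was at 8.94, 9.79 and 9.18 FPKM in Sub-ASCs, 22.9, 26.5 and 26.4 FPKM in Ab-ASCs and 24.3, 24.1 and 23.4 FPKM in PVASCs. Ab-ASCs and PVASCs overlapped for this gene, and Sub-ASCs lay below both. The other subunits, Mcm2, Mcm3, Mcm6 and Mcm7, rose by 1.49 to 2.09 on the log2 scale in PVASCs and by 1.72 to 2.39 in Ab-ASCs. Cdt1, the loading factor, and Gmnn, which encodes its inhibitor geminin, both rose, but not equally. The ratio of Cdt1 to Gmnn in FPKM was 1.26, 1.39 and 1.74 in Sub-ASC libraries, 0.981, 0.919 and 0.866 in Ab-ASC libraries and 0.772, 0.807 and 0.698 in PVASC libraries. It was therefore highest in every Sub-ASC library and lowest in every PVASC library.

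Genes of helicase activation and origin firing were higher in PVASCs in all 9 cases and in Ab-ASCs in 8 of 9, with medians of 1.97 and 1.99. Mcm10, which acts with the helicase when it is activated, changed most. It was at 1.93, 2.32 and 1.98 CPM in Sub-ASCs, 23.4, 22.8 and 22.9 CPM in Ab-ASCs and 16.3, 16.4 and 18.6 CPM in PVASCs. That is an 8.20-fold higher level in PVASCs and an 11.1-fold higher level in Ab-ASCs. Ticrr, which encodes the firing factor treslin, followed with log2 fold changes of 2.90 (standard error 0.16) and 3.18 (standard error 0.16).

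The kinase that starts firing showed an unequal change of its partners. Cdc7, its catalytic subunit, was at 10.98, 10.8 and 10.2 CPM in Sub-ASCs, 9.55, 12.3 and 11.2 CPM in Ab-ASCs and 12.95, 12.02 and 12.97 CPM in PVASCs. Ab-ASCs overlapped Sub-ASCs, and PVASCs lay only just above Sub-ASCs. The log2 fold change was 0.25 (standard error 0.10, adjusted p = 0.0352) in PVASCs and 0.053 (standard error 0.10, adjusted p = 0.646) in Ab-ASCs by edgeR. The call in PVASCs was lost with the replicate number as a block, and when any Sub-ASC replicate or PVASC replicate 1 or 3 was left out (adjusted p up to 0.111), and with no low-count filter (adjusted p = 0.0502). Dbf4, the activator of the kinase, was at 10.98, 9.82 and 9.56 CPM in Sub-ASCs, 29.99, 49.0 and 41.0 CPM in Ab-ASCs and 49.97, 48.8 and 49.8 CPM in PVASCs. It rose 4.90-fold in PVASCs and 3.97-fold in Ab-ASCs, where replicate 1 was lowest. The ratio of Dbf4 to Cdc7 in FPKM was 0.456 ± 0.0215 in Sub-ASCs, 1.73 ± 0.208 in Ab-ASCs and 1.88 ± 0.0585 in PVASCs (SD, n = 3).

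Among the GINS genes, whose products join the helicase, Gins4 was the most abundant and changed least. It was at 12.2, 12.6 and 12.2 FPKM in Sub-ASCs, 26.1, 20.2 and 19.7 FPKM in Ab-ASCs and 17.5, 17.8 and 17.6 FPKM in PVASCs. The log2 fold change was 0.52 in PVASCs (standard error 0.10) and 0.83 in Ab-ASCs (standard error 0.10). Gins1, Gins2 and Gins3 were at 1.15 to 1.72 FPKM on average in Sub-ASCs and rose by 1.07 to 1.97 on the log2 scale in PVASCs. For Gins2, 67.3% of the exon bases are shared with Gse1 on the other strand, and without a stated strand setting reads of this pair cannot be told apart. Cdc45, the further helicase partner, rose by 1.98 (standard error 0.11) in PVASCs and 2.44 (standard error 0.11) in Ab-ASCs.

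**Figure D2:**
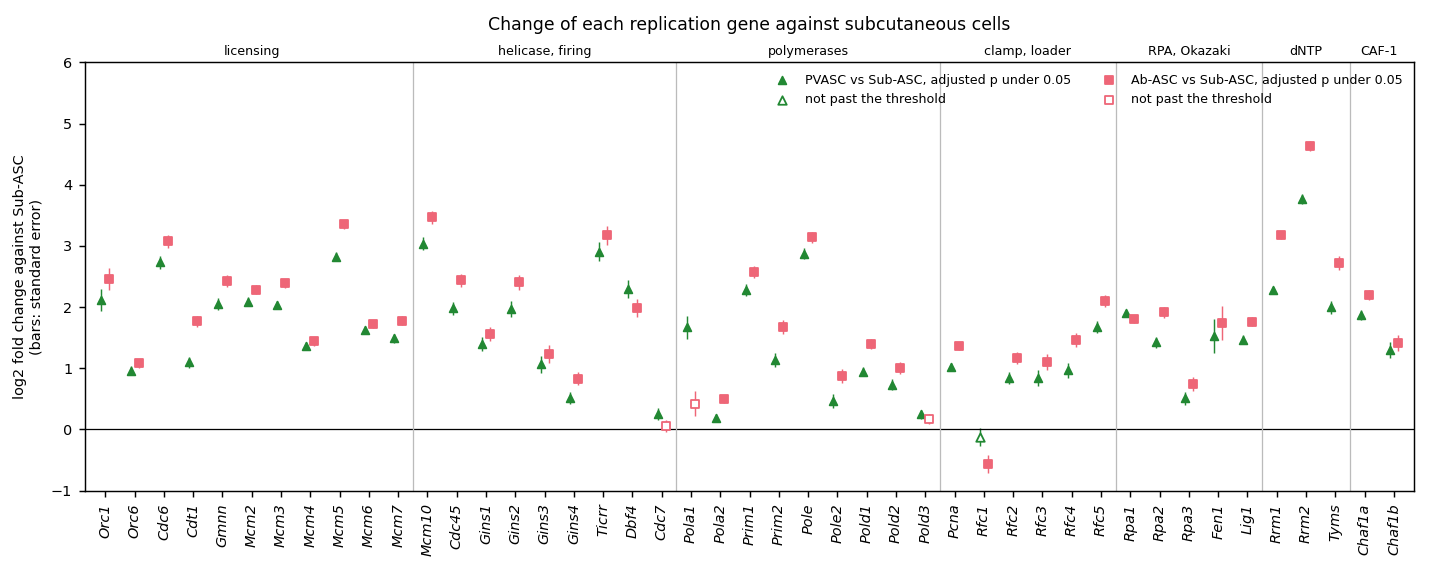
Fitted log2 fold change of each member against Sub-ASCs, with green triangles for PVASCs and red squares for Ab-ASCs and bars for the standard error. Filled symbols passed an adjusted p of 0.05 and open symbols did not. Rrm2 is highest in both comparisons, and Rfc1 is the only member below 0.

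The DNA polymerase and primase genes had smaller median changes than those of licensing and firing. Against Sub-ASCs, all 9 passed the test as higher in PVASCs and 7 of 9 in Ab-ASCs, with medians of 0.94 and 1.00. Pole, the catalytic subunit of the leading-strand polymerase epsilon, changed most. It was at 4.42, 4.87 and 3.92 CPM in Sub-ASCs, 38.1, 38.2 and 40.2 CPM in Ab-ASCs and 31.0, 34.2 and 31.7 CPM in PVASCs, or 7.32-fold higher in PVASCs and 8.82-fold higher in Ab-ASCs. Its partner Pole2, the second subunit, rose by only 0.46 (standard error 0.12) in PVASCs and 0.88 (standard error 0.12) in Ab-ASCs on the log2 scale. The ratio of Pole to Pole2 in FPKM was 0.208 ± 0.0223 in Sub-ASCs, 1.00 ± 0.0947 in Ab-ASCs and 1.10 ± 0.0199 in PVASCs (SD, n = 3).

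Polymerase alpha and primase, which lay down the first stretch of each new strand, also changed unequally. Pola2, the accessory subunit, was at 20.8, 20.5 and 20.3 CPM in Sub-ASCs, 31.2, 27.7 and 28.2 CPM in Ab-ASCs and 22.8, 24.4 and 22.9 CPM in PVASCs. This was the smallest change in PVASCs that passed the test, with a log2 fold change of 0.18 (standard error 0.069, adjusted p = 0.0314 by edgeR), and it did not pass (adjusted p up to 0.0942) when any Sub-ASC replicate or PVASC replicate 2 was left out, or with no low-count filter (adjusted p = 0.0937). Prim1, the catalytic subunit of primase, rose by 2.27 (standard error 0.10) in PVASCs and 2.58 (standard error 0.10) in Ab-ASCs. Prim2, its regulatory partner, rose by 1.14 (standard error 0.11) and 1.68 (standard error 0.11).

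Pola1, the catalytic subunit of polymerase alpha, differed between PVASCs and Ab-ASCs as well. It was at 9.39, 8.52 and 8.27 CPM in Sub-ASCs, 6.92, 13.9 and 13.8 CPM in Ab-ASCs and 28.2, 29.1 and 25.8 CPM in PVASCs. PVASCs lay above all other libraries, while Ab-ASC replicate 1 lay below the Sub-ASC libraries. The log2 fold change was 1.67 in PVASCs (standard error 0.19, adjusted p = 4.90e-06) and 0.42 in Ab-ASCs (standard error 0.20, adjusted p = 0.0744) by edgeR. Without Ab-ASC replicate 1, the value in Ab-ASCs was 0.68 with an adjusted p of 2.75e-06, and with all libraries and no low-count filter it was 0.43 with an adjusted p of 4.42e-04.

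Subunits of polymerase delta, which mainly copies the lagging strand, rose modestly. The catalytic Pold1 rose by 0.94 (standard error 0.074) in PVASCs and 1.40 (standard error 0.075) in Ab-ASCs. Pold2 had the highest mean FPKM in each group among the polymerase and primase genes that are members. Its library values were 7.94, 7.08 and 8.12 in Sub-ASCs, 16.7, 13.7 and 16.0 in Ab-ASCs and 13.4, 11.8 and 13.1 in PVASCs. Pold3 was at 17.5, 18.8 and 17.5 CPM in Sub-ASCs, 19.8, 19.6 and 21.0 CPM in Ab-ASCs and 20.1, 22.5 and 21.3 CPM in PVASCs. Each higher group lay just above Sub-ASCs, with log2 fold changes of 0.25 (standard error 0.072, adjusted p = 0.00867) in PVASCs and 0.17 (standard error 0.074, adjusted p = 0.0539) in Ab-ASCs by edgeR. The value in Ab-ASCs passed the test without Sub-ASC replicate 2 (0.21, adjusted p = 0.0381) and without PVASC replicate 1 or 2 (0.18 in each case).

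Of the clamp and clamp loader genes, 5 of 6 were higher in PVASCs and in Ab-ASCs, with medians of 0.91 and 1.27. Pcna, the sliding clamp, was at 63.6, 56.4 and 59.2 CPM in Sub-ASCs, 167, 148 and 146.7 CPM in Ab-ASCs and 122, 119 and 121 CPM in PVASCs. The 3 groups did not overlap, and the level was 2.02-fold higher in PVASCs and 2.58-fold higher in Ab-ASCs. Rfc5, a small subunit of the loader, changed most, with log2 fold changes of 1.67 (standard error 0.10) and 2.10 (standard error 0.10). Its levels were 11.1, 8.56 and 9.56 CPM in Sub-ASCs, 44.8, 37.8 and 42.6 CPM in Ab-ASCs and 28.7, 32.1 and 32.3 CPM in PVASCs. Rfc2, Rfc3 and Rfc4 rose by 0.84 to 0.97 on the log2 scale in PVASCs and by 1.11 to 1.46 in Ab-ASCs.

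Rfc1, the large subunit that also serves in DNA repair, did not follow the other subunits. It was at 55.9, 63.6 and 54.8 CPM in Sub-ASCs, 27.7, 47.3 and 42.3 CPM in Ab-ASCs and 54.3, 53.1 and 52.4 CPM in PVASCs. Ab-ASCs were lower than Sub-ASCs, with a log2 fold change of -0.57 (standard error 0.15, adjusted p = 0.00353 by edgeR), or -0.37 without Ab-ASC replicate 1. In PVASCs the log2 fold change was -0.12 (standard error 0.14, adjusted p = 0.448), which turned to 0.033 when libraries were scaled by their totals. No other member was lower in a comparison with Sub-ASCs by this test.

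Genes for single-strand binding and for joining Okazaki fragments, the short pieces of the lagging strand, were higher in all 5 cases in both groups. Rpa1, the large subunit of RPA, was at 42.0, 42.7 and 43.8 CPM in Sub-ASCs, 159, 144 and 144 CPM in Ab-ASCs and 155, 161 and 162 CPM in PVASCs. It had the highest FPKM of this group in PVASCs and the largest change there, with a log2 fold change of 1.90 (standard error 0.058). Rpa3, the smallest subunit, changed least, with 0.51 (standard error 0.11) in PVASCs and 0.74 (standard error 0.11) in Ab-ASCs. Its levels were 13.6, 12.3 and 11.5 CPM in Sub-ASCs, 23.7, 17.9 and 20.9 CPM in Ab-ASCs and 16.6, 17.6 and 19.0 CPM in PVASCs. Lig1, the ligase that seals the fragments, rose 2.77-fold in PVASCs and 3.39-fold in Ab-ASCs.

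Fen1, the nuclease that trims these fragments, had only 15 to 38 reads in Sub-ASC libraries, 70 to 93 in Ab-ASC libraries and 81 to 128 in PVASC libraries. Its log2 fold change was 1.53 in PVASCs (standard error 0.27, adjusted p = 3.01e-04 by edgeR) and 1.75 in Ab-ASCs (standard error 0.28). Of its exon bases in GENCODE M21, 84.2% are shared with genes on the other strand, Tmem258 and Gm10143. Tmem258 had 783 to 1447 reads per library. The level of Fen1 is therefore uncertain, since counters commonly leave out reads that fall on 2 genes.

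Genes of nucleotide supply had the largest medians of the 7 roles, at 2.27 in PVASCs and 3.18 in Ab-ASCs. Rrm2, the small subunit of ribonucleotide reductase, which makes deoxyribonucleotides, was at 7.81, 9.35 and 7.70 CPM in Sub-ASCs. It was at 219, 196 and 199.7 CPM in Ab-ASCs and 113, 116 and 110.03 CPM in PVASCs. The groups were far apart, with a 13.6-fold higher level in PVASCs and a 24.7-fold higher level in Ab-ASCs (log2 fold change 3.77, standard error 0.082, adjusted p = 8.14e-13, and 4.63, standard error 0.084, adjusted p = 1.85e-13, by edgeR). Rrm1, the large subunit, was at 44.6, 48.7 and 46.2 CPM in Sub-ASCs, 451, 400.9 and 412 CPM in Ab-ASCs and 222, 229 and 225 CPM in PVASCs. Tyms, the thymidylate synthase, had the smallest change of this role in PVASCs. It was at 12.3, 14.9 and 13.7 CPM in Sub-ASCs, 106, 79.0 and 85.3 CPM in Ab-ASCs and 53.8, 54.7 and 55.0 CPM in PVASCs.

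Both chromatin assembly genes, which encode subunits of the CAF-1 complex that deposits histones behind the fork, were higher. Chaf1a was at 9.74, 9.82 and 9.41 CPM in Sub-ASCs, 46.8, 40.5 and 45.7 CPM in Ab-ASCs and 35.0, 36.7 and 34.2 CPM in PVASCs. It rose 3.66-fold in PVASCs and 4.58-fold in Ab-ASCs, but 52.5% of its exon bases are shared with Ubxn6 on the other strand. Chaf1b was at 5.28, 5.66 and 5.18 CPM in Sub-ASCs, 17.2, 12.9 and 13.0 CPM in Ab-ASCs and 14.3, 13.6 and 11.8 CPM in PVASCs. It rose 2.46-fold and 2.66-fold. Of all 45 members, 30 shared no exon base with another gene, and 3 (Gins2, Fen1 and Chaf1a) shared more than 20%.

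Because subunits of the same complex rose unequally, their levels stood in different proportions in the 3 groups. Within MCM2-7, the ratio of the highest to the lowest subunit in FPKM was 3.94 ± 0.263 in Sub-ASCs, 2.24 ± 0.184 in Ab-ASCs and 2.31 ± 0.0227 in PVASCs (SD, n = 3). Mcm5 was the lowest subunit in Sub-ASCs, at 2.37 FPKM, whereas in Ab-ASCs it was at 24.2 FPKM and Mcm2 was lowest at 11.9. The ratio of Mcm5 to Mcm6 was 0.331 ± 0.00879 in Sub-ASCs, 1.03 ± 0.0332 in Ab-ASCs and 0.755 ± 0.0281 in PVASCs (SD, n = 3), with no overlap between groups.

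In the clamp loader the spread was also widest in Sub-ASCs. Rfc1 was the most abundant RFC subunit in Sub-ASCs, at 9.65 FPKM, and the ratio of the highest to the lowest subunit was 4.77 ± 0.880 there, 2.03 ± 0.141 in Ab-ASCs and 2.10 ± 0.125 in PVASCs (SD, n = 3). Ribonucleotide reductase had more Rrm1 than Rrm2 per length in Sub-ASCs and the reverse elsewhere. The ratio of Rrm2 to Rrm1 was 0.696, 0.763 and 0.662 in Sub-ASC libraries, 1.93, 1.95 and 1.93 in Ab-ASC libraries and 2.03, 2.01 and 1.95 in PVASC libraries. For polymerase alpha and primase, the spread from Pola1 to Pola2 was narrower in PVASCs, at 2.59 ± 0.1202, than in Sub-ASCs, at 7.25 ± 0.386 (SD, n = 3). In Ab-ASCs it was 6.10 to 13.8 over the 3 libraries, with replicate 1 at the upper end. The size of these values, and of the differences between groups, rests on the short listed length of Pola2, which is the same in every group. A longer length would lower the FPKM of Pola2 and could make another subunit the highest. In GINS the spread was 10.8 ± 0.929, 8.16 ± 1.37 and 7.45 ± 0.979, and in RPA 4.17 ± 0.1595, 2.70 ± 0.146 and 4.06 ± 0.0618, in Sub-ASCs, Ab-ASCs and PVASCs (SD, n = 3). For ribonucleotide reductase the higher subunit was at 1.42 ± 0.102 times the lower in Sub-ASCs, where Rrm1 was higher, and at 1.93 ± 0.0115 and 1.997 ± 0.0442 times in Ab-ASCs and PVASCs, where Rrm2 was higher. The mean spread was also above that of Sub-ASCs in polymerase delta and CAF-1: it was 2.48 ± 0.172, 3.53 ± 0.328 and 2.78 ± 0.336 for polymerase delta and 1.05 ± 0.0335, 1.65 ± 0.210 and 1.42 ± 0.122 for CAF-1 in Sub-ASCs, Ab-ASCs and PVASCs (SD, n = 3). These ratios do not depend on how libraries are scaled, and no test was applied to them. They cover members only, so the spread of polymerase delta is that of Pold1, Pold2 and Pold3. Its subunit gene Pold4, not a member, was higher than these. Pold4 was at 27.7 to 29.9 FPKM in Sub-ASCs, 80.4 to 104 FPKM in Ab-ASCs and 57.7 to 63.9 FPKM in PVASCs.

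**Figure D3:**
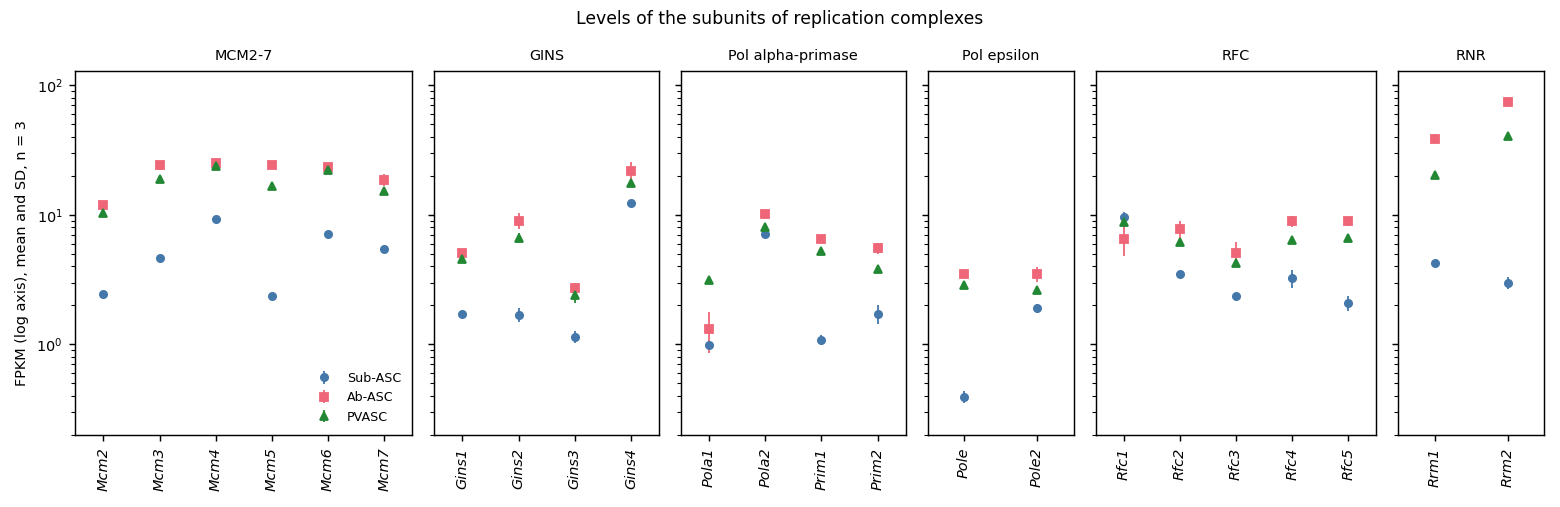
Levels of the member subunits of 6 replication complexes, as mean FPKM on a log axis with SD over 3 libraries. Blue circles are Sub-ASCs, red squares Ab-ASCs and green triangles PVASCs. Pole3 and Pole4 of polymerase epsilon, which are not members, are not shown. Subunits lie at more equal heights in Ab-ASCs and PVASCs than in Sub-ASCs for MCM2-7, polymerase epsilon and RFC, and Rrm1 and Rrm2 of ribonucleotide reductase (RNR) change order.

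PVASCs and Ab-ASCs differed far less from each other. By edgeR, 2 members were higher and 28 lower in PVASCs, and 15 did not pass the test, against 24.7% higher and 32.1% lower of all genes tested. The median log2 fold change was -0.31, beside -0.055 for all genes. For 29 members every PVASC library lay below every Ab-ASC library in CPM (35.6% of all genes did), and for 2 members above (28.3%). With at least a 2-fold difference required, 1 member, Pola1, was higher (10.1% of all genes) and none was lower (5.31%). This comparison depends on the scaling. With libraries scaled by their totals alone, 7 members were higher and 10 lower, while 38.0% of all genes were higher and 16.2% lower. The median of all genes then moved from -0.055 to 0.17 and that of the members to -0.084. Relative to the median of all genes, the members lay at -0.26 with TMM and at -0.25 with library totals, and between -0.32 and -0.21 over 17 settings.

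Nucleotide supply genes were lowest in PVASCs relative to Ab-ASCs. The log2 fold change was -0.90 for Rrm1 (standard error 0.057, adjusted p = 7.17e-08), -0.86 for Rrm2 (standard error 0.068, adjusted p = 6.09e-07) and -0.72 for Tyms (standard error 0.10, adjusted p = 6.26e-05) by edgeR. With library totals these were -0.68, -0.63 and -0.50, and all 3 still passed the test. Cdt1, Mcm5, Mcm10, Cdc45, Prim2, Pold1 and Rpa2 were the other members lower under both scalings, from -0.67 for Cdt1 to -0.43 for Mcm10 with TMM. Of the other 18 members lower with TMM, 17 no longer passed with library totals and kept their sign. Mcm2, at -0.19 with TMM (standard error 0.065, adjusted p = 0.0232), turned to 0.035. Its call was also lost on leaving out any single PVASC replicate (adjusted p from 0.0537 to 0.0795), with at least 10 reads required in every library (adjusted p = 0.0517) and with only the groups compared (adjusted p = 0.132).

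Pola1 was the member highest in PVASCs relative to Ab-ASCs, with a log2 fold change of 1.25 (standard error 0.18, adjusted p = 1.21e-04 by edgeR). It was 0.99 without Ab-ASC replicate 1 and 1.47 with library totals. Rfc1 followed with 0.44 (standard error 0.14, adjusted p = 0.0207), or 0.25 without that replicate, and the call was lost without PVASC replicate 1 (0.43, adjusted p = 0.0587). Dbf4, next in this order, was at 0.30 (standard error 0.13, adjusted p = 0.0655), or 0.14 without it. It passed the test in DESeq2 (0.33, adjusted p = 0.0498), with no low-count filter (0.30), with at least 10 reads required in every library (0.34), without Ab-ASC replicate 2 (0.47) and with library totals (0.52, adjusted p = 0.0101). These 3 genes are also those for which Ab-ASC replicate 1 had less than 0.7 times the mean CPM of the other Ab-ASC libraries. Over all 45 members this ratio had a median of 1.11 and ran from 0.499 for Pola1 to 1.42 for Rfc3. The origin of this pattern was not tested.

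**Figure D4:**
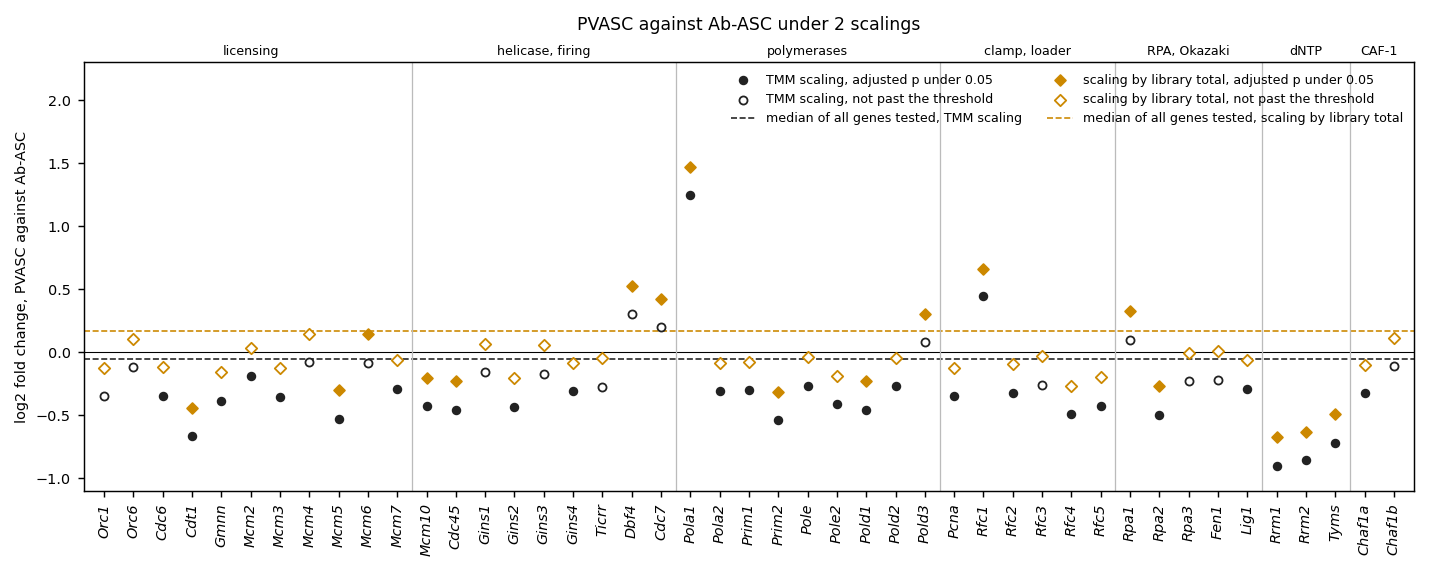
Fitted log2 fold change of each member in PVASCs against Ab-ASCs with TMM scaling (black circles) and with scaling by library total (yellow diamonds). Filled symbols passed an adjusted p of 0.05, and dashed lines are the medians of all genes tested, at -0.055 and 0.17. Most members lie below the dashed line of their scaling, with Rrm1, Rrm2 and Tyms lowest and Pola1 highest.

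A further list of 39 replication factors outside the 45 moved in the same direction in most cases. In PVASCs 32 were higher and 2 lower than in Sub-ASCs, and in Ab-ASCs 32 were higher and 4 lower, with medians of 1.09 and 1.07. Over the whole table, PVASCs had 34.7% of genes higher and 35.7% lower, and Ab-ASCs had 37% higher and 38.3% lower. Top2a, the topoisomerase that untangles copied DNA, was at 21.7, 22.8 and 21.1 CPM in Sub-ASCs, 103, 190.4 and 159 CPM in Ab-ASCs and 194, 195 and 195 CPM in PVASCs. It rose by 3.15 on the log2 scale (standard error 0.17) in PVASCs. Clspn, which encodes the fork protein claspin, and the helicase gene Recql4 followed with 2.90 (standard error 0.12) and 2.75 (standard error 0.27). At the other end, Mcm9 fell by 0.42 on the log2 scale (standard error 0.10, adjusted p = 0.00239 by edgeR) and Timeless, a fork protection gene, fell by 0.29 (standard error 0.069, adjusted p = 0.0025). Mcmbp, an MCM-binding protein gene, was at -0.096 (standard error 0.064, adjusted p = 0.201).

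Paralogues of the members did not all follow them. Mcm8, which with Mcm9 forms a helicase used in repair rather than in licensing, rose by 2.47 (standard error 0.18) in PVASCs, opposite to its partner. Rrm2b, the p53-inducible alternative to Rrm2, was at 13.2, 13.4 and 11.1 CPM in Sub-ASCs, 4.45, 10.3 and 6.59 CPM in Ab-ASCs and 13.1, 11.8 and 12.1 CPM in PVASCs. Its log2 fold change was -0.026 in PVASCs (standard error 0.19, adjusted p = 0.91) and -0.80 in Ab-ASCs (standard error 0.21, adjusted p = 0.00418) by edgeR. The ratio of Rrm2 to Rrm2b in FPKM was 1.95 to 2.301 in Sub-ASC libraries, 28.6 to 32.4 in PVASC libraries and 62.9 to 162 in Ab-ASC libraries. Pold4, the small subunit of polymerase delta, is not a paralogue of a member. It rose by 1.09 (standard error 0.094) in PVASCs and 1.63 (standard error 0.095) in Ab-ASCs.

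Regulators of the G1/S transition, the step at which cells commit to replication, were mixed. Of 31 genes, 24 were higher and 3 lower in PVASCs, and 22 were higher and 5 lower in Ab-ASCs, both against Sub-ASCs, beside 34.7% and 35.7% of all genes tested in PVASCs and 37% and 38.3% in Ab-ASCs. Ccnd1, which encodes cyclin D1, was at 31.0, 32.2 and 32.8 CPM in Sub-ASCs, 197, 187 and 183 CPM in Ab-ASCs and 525, 529 and 518 CPM in PVASCs. The 3 groups were fully separate, and PVASCs were 16.4-fold above Sub-ASCs and 2.78-fold above Ab-ASCs. E2f8, an E2F factor that represses, and Ccna2, the S phase cyclin A2, rose by 3.76 (standard error 0.20) and 3.66 (standard error 0.10) in PVASCs. By contrast E2f1, an activating factor named after its value was seen, rose by 0.46 (standard error 0.076). The 3 genes lower in PVASCs restrain the cycle. Cdkn1c, which encodes the CDK inhibitor p57, fell by 5.29 on the log2 scale (standard error 0.13), from 35.1, 37.2 and 39.7 CPM in Sub-ASCs to 0.825, 0.948 and 1.08 CPM in PVASCs, and was at 1.02, 0.755 and 0.624 CPM in Ab-ASCs. Rbl2, the retinoblastoma-like p130, fell by 0.96 (standard error 0.066) and Cdkn1b, the inhibitor p27, fell by 0.65 (standard error 0.074). Other CDK inhibitors, named after their values were seen, rose in PVASCs, Cdkn1a (p21) by 1.13 (standard error 0.057) and Cdkn2a by 2.82 (standard error 0.12). In Ab-ASCs Cdkn2a was at -0.087 (standard error 0.14).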

How the data were processed

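RNA from 3 depots of ASCs was sequenced in 9 libraries, 3 per group, and groups were taken from the sample titles. The authors deposited raw read counts per gene with gene lengths and positions. The submitters' processing notes list CASAVA 1.8, Bowtie 0.12.2, featureCounts 1.5.0-p3 and the builds mm8 and mm10, without their roles; the strand setting is not given in the sources used here. Listed positions equalled those of GENCODE M21 on GRCm38 for 98.1% of genes and for 44 of the 45 members. Pola2 had a shorter listed length, 2872 bases, than its exons there, 8294 bases. Counts were tested with edgeR 4.0.16 in R 4.3.3 (filterByExpr, TMM, glmQLFit and glmQLFTest, all libraries in 1 fit, no covariate), with Benjamini-Hochberg adjustment over 16526 genes and a threshold of 0.05. Standard errors were taken from the fold change and the F statistic. CPM and FPKM were calculated from counts with TMM-scaled library sizes. The procedure was tested on simulated data.

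Replicates differed by more than sampling noise: the chi-square statistic per degree of freedom was 2.92 to 29.3. The members and lists were chosen with earlier results of these data known. Values in every library are given for the largest and smallest change and the highest FPKM in each role. They are also given for members not called or called against the majority, and for members at the extremes in PVASCs against Ab-ASCs. In the other lists they are given for Top2a, Rrm2b, Ccnd1, Cdkn1c and Cdk6. Alternative settings were a DESeq2 1.42.0 fit, RLE or library-total scaling, other count filters, separate fits for each pair of groups, a replicate block, a cutoff on the log2 fold change of 1, and leaving out each library. Promoter windows and exon overlaps were read with Python 3.11.15.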

Additional observations from a re-analysis of the deposited data

How the results depend on the processing

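For the 45 members in 3 comparisons, 2160 alternative values were computed, of which 2079 kept their direction and side of the threshold, 41 kept their direction but lost the call, 28 kept it and gained a call, and 12 changed sign. With library totals, the median log2 fold change was 1.65 for PVASCs against Sub-ASCs, 1.69 for Ab-ASCs against Sub-ASCs and -0.084 for PVASCs against Ab-ASCs, where 7 members were higher and 10 lower. Among members whose sign changed, Mcm2 lost its call and Mcm6 was newly called higher in PVASCs than in Ab-ASCs. Signs then changed in PVASCs against Ab-ASCs for Chaf1b (0.11), Fen1 (0.0079), Gins1 (0.067), Gins3 (0.052), Mcm2 (0.035), Mcm4 (0.15), Mcm6 (0.14) and Orc6 (0.10), in Ab-ASCs against Sub-ASCs for Cdc7 (-0.012) and in PVASCs against Sub-ASCs for Rfc1 (0.033). With each library left out in turn, Cdc7 was at -0.025 (without Ab-ASC replicate 2) to 0.15 in Ab-ASCs against Sub-ASCs, and Chaf1b at -0.19 to 0.030 (without Ab-ASC replicate 1) in PVASCs against Ab-ASCs. A fold cutoff left 0 members lower in Ab-ASCs than in Sub-ASCs, and 1 higher and 0 lower in PVASCs than in Ab-ASCs; by construction it removes small changes. With at least 10 reads in every library, 4 members were higher and 27 lower in PVASCs than in Ab-ASCs, against 26.9% and 33.8% of all genes. Fitting only the groups compared gave a median of -0.23 for that pair. Gins4, Mcm2, Pold2 and Rfc2 then lost their calls and Rpa1 gained one. The cause of these changes was not tested.

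Leaving out each library in turn gave medians of 1.46 to 1.51 in PVASCs and 1.70 to 1.81 in Ab-ASCs against Sub-ASCs, and -0.37 to -0.27 between PVASCs and Ab-ASCs. Members called higher ranged from 42 to 44, 41 to 42 and 1 to 4, and members called lower from 0 to 0, 1 to 1 and 26 to 32. Of all genes tested, 31.9 to 36.9%, 34.7 to 36.4% and 21.2 to 24.9% were higher in these fits, and 32.6 to 37.6%, 35.8 to 38.0% and 27.5 to 31.8% lower. Between PVASCs and Ab-ASCs, 4 members were higher without Ab-ASC replicate 2 and 1 without PVASC replicate 1. Calls lost in PVASCs against Sub-ASCs in these fits were of Cdc7 and Pola2. In PVASCs against Ab-ASCs, calls of Mcm2, Pold2, Rfc1 and Rfc2 were lost in some of these fits. Cdc7, Dbf4, Mcm4, Orc1, Rfc3, Rpa1, Rpa3 and Ticrr gained a call there in some fits. In Ab-ASCs against Sub-ASCs, Pola1 and Pold3 gained a call in some fits.

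With the replicate block, 43 members were higher and 0 lower in PVASCs, and 41 higher and 1 lower in Ab-ASCs, than in Sub-ASCs; 2 were higher and 28 lower in PVASCs than in Ab-ASCs. The shares over all genes were 34.2% and 35.1%, 36.5% and 37.9%, and 24.3% and 31.3%. The medians were 1.49, 1.76 and -0.31. Only the call of Cdc7 in PVASCs against Sub-ASCs changed with the block. Deviations of same-numbered libraries had correlations across genes of 0.0146 to 0.0268 for PVASCs and Sub-ASCs, -0.112 to 0.195 for Ab-ASCs and Sub-ASCs and -0.0501 to -0.0224 for PVASCs and Ab-ASCs. Every library correlated best with its own number in the first pair only, and the numbers are not taken to pair the samples.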

Other observations

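Among the G1/S regulators, 9 were higher and 8 lower in PVASCs than in Ab-ASCs by edgeR at an adjusted p of 0.05, beside 24.7% and 32.1% of all genes tested. Cdk6, a partner kinase of the D-type cyclins, was at 13.8, 15.3 and 14.8 CPM in Sub-ASC libraries, 8.15, 13.9 and 14.9 CPM in Ab-ASC libraries and 40.3, 43.5 and 40.7 CPM in PVASC libraries. It was 1.74 higher on the log2 scale in PVASCs than in Ab-ASCs (standard error 0.15). Ccne2, which encodes cyclin E2, was 0.87 higher there (standard error 0.13), whereas Ccne1 was at -0.34 (standard error 0.092). The CDK inhibitor gene Cdkn2a differed most in this list, at 43.5 to 49.3 CPM in PVASCs and 4.68 to 7.56 CPM in Ab-ASCs. Cdkn2b was at 39.0 to 40.5 CPM in PVASCs and 13.4 to 17.9 CPM in Ab-ASCs. Cdkn2c went the other way, at 27.6 to 28.3 CPM in PVASCs and 39.7 to 41.4 CPM in Ab-ASCs. Of the 39 further replication factors, 6 were higher and 17 lower in PVASCs than in Ab-ASCs, a comparison with the same shares over all genes. Pole4, a histone-fold subunit of polymerase epsilon, was lowest at -0.77 (standard error 0.072), and Orc4, a subunit of the origin recognition complex, was highest at 0.82 (standard error 0.10). Genes in this paragraph other than those named in the report were chosen after their values were seen.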
